A study of Homo sapiens with 30 samples.

Results

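The cell cycle module examined here holds 42 genes of the S and G2/M phases and of G1 control, out of 19775 genes that had a probe set of their own on the array. The genes were listed by their known roles, by a rule that uses no measured value, although earlier results of these data were known when the list was drawn up. Each was read from the probe set with the highest mean over all 30 arrays. All 42 were measured on every array, and no filter on low values removed any of them. Their mean log2 levels ran from 6.57 for *PLK1* to 12.8 for *TYMS*. They fall into 3 proliferation markers, 9 genes of origin licensing and the replicative helicase, 4 genes of nucleotide synthesis, 4 S phase cyclins and their phosphatase, 6 genes of mitotic entry, 9 genes of the spindle, centromere and spindle checkpoint, 2 genes of the anaphase promoting complex and 5 G1 regulators.

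All 30 arrays came from LOUCY, an established cell line of early thymic progenitor acute lymphoblastic leukemia (ETP-ALL), which carries a SET-NUP214 fusion and expresses endogenous MEF2C from a rearrangement near the *MEF2C* locus. The MEF2C line (LOUCY_MEF2C-BFP) carries a lentiviral, doxycycline (dox)-inducible and codon-optimized MEF2C that lacks the β transactivation domain, and was kept as a sorted bulk line. It was grown in 3 cultures, which were medium alone, mouse OP9-GFP bone marrow stroma, and OP9-DL1 stroma, which also expresses the Notch ligand Delta-like 1. The study's methods list SCF, FLT3L and IL-7 for human cocultures, without stating whether those of LOUCY received them. Another line carries an inducible intracellular NOTCH1 (ICN), and a further line carries both MEF2C and ICN. Both were grown in medium only. Each of these 5 settings was sampled with and without overexpression, read here as with and without dox, which gave 10 groups of 3 arrays. The study describes dox (0.5 μg/mL in culture) for the MEF2C construct. For the ICN lines the labels and the study's methods name no inducer and no dose. Induction of the MEF2C line lasted 24 hours. Neither the induction time of the ICN lines nor the length of the cocultures was given in the sources used here. No line without a construct received dox, so that dox and the induced protein cannot be told apart. Each line was made separately, so that line and construct cannot be told apart either. Nothing states that the 3 arrays of a group came from separate cultures, and p-values therefore measure the spread between arrays, which may be technical.

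In G1, D-type cyclins with CDK4 and CDK6 start to release E2F factors from the retinoblastoma protein, and cyclin E with CDK2 completes this step, while the inhibitors p21 (*CDKN1A*) and p27 (*CDKN1B*) hold these kinases back. E2F factors activate the genes that load the MCM helicase on origins and that make deoxynucleotides. Later, the MMB complex with B-MYB and FOXM1 acts on the genes of mitosis, often through a CHR element. Notch signalling is known to act on G1 in T cell leukemia, and *CCND3* is a known Notch target in T cells. Messenger RNA of the mitotic genes is most abundant in G2/M, so that in bulk RNA a change in the share of cells in a phase and a change in RNA per cell cannot be told apart. Cell cycle phase and growth were not measured on these arrays.

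Values are log2 intensities after robust multi-array averaging (RMA) by the authors, so that a difference of 1 is a 2-fold change. Arrays of one group correlated at 0.990 to 0.998, and array medians lay between 4.76 and 4.84. The median SD within groups was 0.067 for the 42 genes and 0.131 for all genes, at median levels of 9.94 and 5.71. A gene was called changed at an adjusted p under 0.05. Of 3 *MEF2C* probe sets, 2 were lower with dox in the MEF2C line (log2 difference -1.06 and -1.07), and the remaining one was higher by 0.79. The study describes the *MEF2C* probe sets that lie outside the cloned cDNA as reading the endogenous gene, and a single other set as covering the construct as well. The annotation used here does not say which set that is. The brighter *NOTCH1* probe set differed by 0.01 upon ICN induction and by 0.07 upon joint induction (neither called), while a dimmer one rose by 0.56 (adjusted p = 0.0129) and by 0.81 (adjusted p = 0.000345). The Notch target *HES1* averaged 5.59 in the MEF2C line without stroma or dox. On OP9-GFP it averaged 7.45 and on OP9-DL1 9.34, both without dox. It stood at 10.2 in the ICN line and 9.34 in the MEF2C and ICN line already without dox. Of the other Notch targets listed, *HEY1* and *DTX1* were lower there and rose with dox, but not all listed targets rose. *HEY1* went from 7.02 to 12.0 in the ICN line and from 5.54 to 7.80 in the MEF2C and ICN line, and *DTX1* from 5.81 to 8.12 and from 4.48 to 7.26. *HES4* went from 9.22 to 9.61 and from 8.09 to 9.43. In the ICN line *NRARP* went from 5.32 to 5.01, *PTCRA* from 6.53 to 6.39 and *HEYL* from 4.87 to 4.73. *NOTCH3* went from 5.49 to 5.58 there, and the dim *HES5* and *MYC* from 2.93 to 3.15 and from 2.80 to 2.86. Of 25 stromal markers, between 16 and 20 had a group mean under 5 in the 10 groups. Of 12 T lineage and ETP-ALL markers, at most 2 had a group mean under 5.

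Promoter sequences, taken from RefSeq (GRCh38.p14), were found for 34 of the 42 genes. They are shown because the module divides into S phase genes and mitotic genes, which are known to use different promoter elements. In the 300 bases from 250 before to 50 after the start, E2F-type letters (TTTGGCGC, TTTCGCGC, TTTCCCGC or TTTGCCGC, either strand) were found in 13 of the 34 promoters (38.2%) and in 3.33% of all 27305 promoters. All 7 licensing gene promoters held them, against 1 of 8 spindle gene promoters. CHR letters (TTTGAA or TTCGAA, either strand) were also found in 13 of 34 (38.2%), against 16.6% of all promoters, with 5 of 8 spindle genes, 3 of 4 mitotic entry genes and 1 of 7 licensing genes. CCAAT letters on either strand stood in 25 of 34 (73.5%) and in 35.7% of all promoters. A match of letters is a description of the sequence and not a binding site. The 4 windows below cover the 250 bases before the start of *GINS2* (chr16:85688955-85689204, minus strand), *RRM2* (chr2:10122489-10122738, plus strand), *BUB1* (chr2:110678064-110678313, minus strand) and *BUB1B* (chr15:40160819-40161068, plus strand), 2 S phase genes and 2 checkpoint kinases that moved in opposite directions on stroma. Capitals mark matches to the motifs, which are an E2F match and CCAAT in *GINS2*, CCAAT in *RRM2* and *BUB1*, and a CHR match in *BUB1B*. The promoter of *BUB1* also holds 1 CHR match in the 300 bases searched, which is not within the window shown. The *RRM2* window uses the start of its promoter entry, while the range of the gene begins within the window, at 10122568.
GINS2: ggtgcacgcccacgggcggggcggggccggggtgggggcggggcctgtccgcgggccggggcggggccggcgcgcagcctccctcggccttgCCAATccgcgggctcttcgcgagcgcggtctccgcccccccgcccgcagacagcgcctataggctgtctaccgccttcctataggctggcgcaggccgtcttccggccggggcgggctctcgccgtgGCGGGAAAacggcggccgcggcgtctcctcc
RRM2: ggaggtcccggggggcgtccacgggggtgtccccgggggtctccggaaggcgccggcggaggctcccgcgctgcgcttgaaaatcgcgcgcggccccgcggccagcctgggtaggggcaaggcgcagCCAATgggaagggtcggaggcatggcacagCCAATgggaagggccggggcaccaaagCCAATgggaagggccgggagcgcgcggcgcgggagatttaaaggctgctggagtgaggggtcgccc
BUB1: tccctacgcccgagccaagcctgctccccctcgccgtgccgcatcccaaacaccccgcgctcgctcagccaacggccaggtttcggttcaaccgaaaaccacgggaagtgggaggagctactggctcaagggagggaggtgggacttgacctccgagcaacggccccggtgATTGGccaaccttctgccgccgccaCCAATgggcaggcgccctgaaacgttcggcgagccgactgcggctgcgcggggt
BUB1B: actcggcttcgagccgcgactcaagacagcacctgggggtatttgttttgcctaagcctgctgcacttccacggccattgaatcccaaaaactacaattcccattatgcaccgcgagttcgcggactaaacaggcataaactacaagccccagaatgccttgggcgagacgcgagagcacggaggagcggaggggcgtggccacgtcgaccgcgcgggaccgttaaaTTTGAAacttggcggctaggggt

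Over the 10 groups, most of the module varied little. The range of group means was widest for *CDKN1A* (3.31 on the log2 scale), *CCND2* (2.32) and *RRM2* (1.28), followed by *CCND3* (0.86), *AURKB* (0.81), *CDKN1B* (0.79), *GINS2* (0.72) and *MCM5* (0.69). It was narrowest for *CDC20* (0.18) and *CCNB2* (0.21). Over 13 comparisons of dox, stroma and line, 32 genes were called at least once. The 10 genes never called were *MCM7*, *RRM1*, *TYMS*, *TK1*, *CCNB2*, *PLK1*, *FOXM1*, *CENPF*, *CDC20* and *E2F1*. *CDKN1A* was called most often, in 8 comparisons (5 higher, 3 lower). *GINS2* was higher in 7, *CCND2* lower in 7 and *RRM2* higher in 6. None of the *GINS2* calls was kept when the gene was read from its most variable probe set. The comparisons share groups, so that these counts are not independent.

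**Figure D1:**
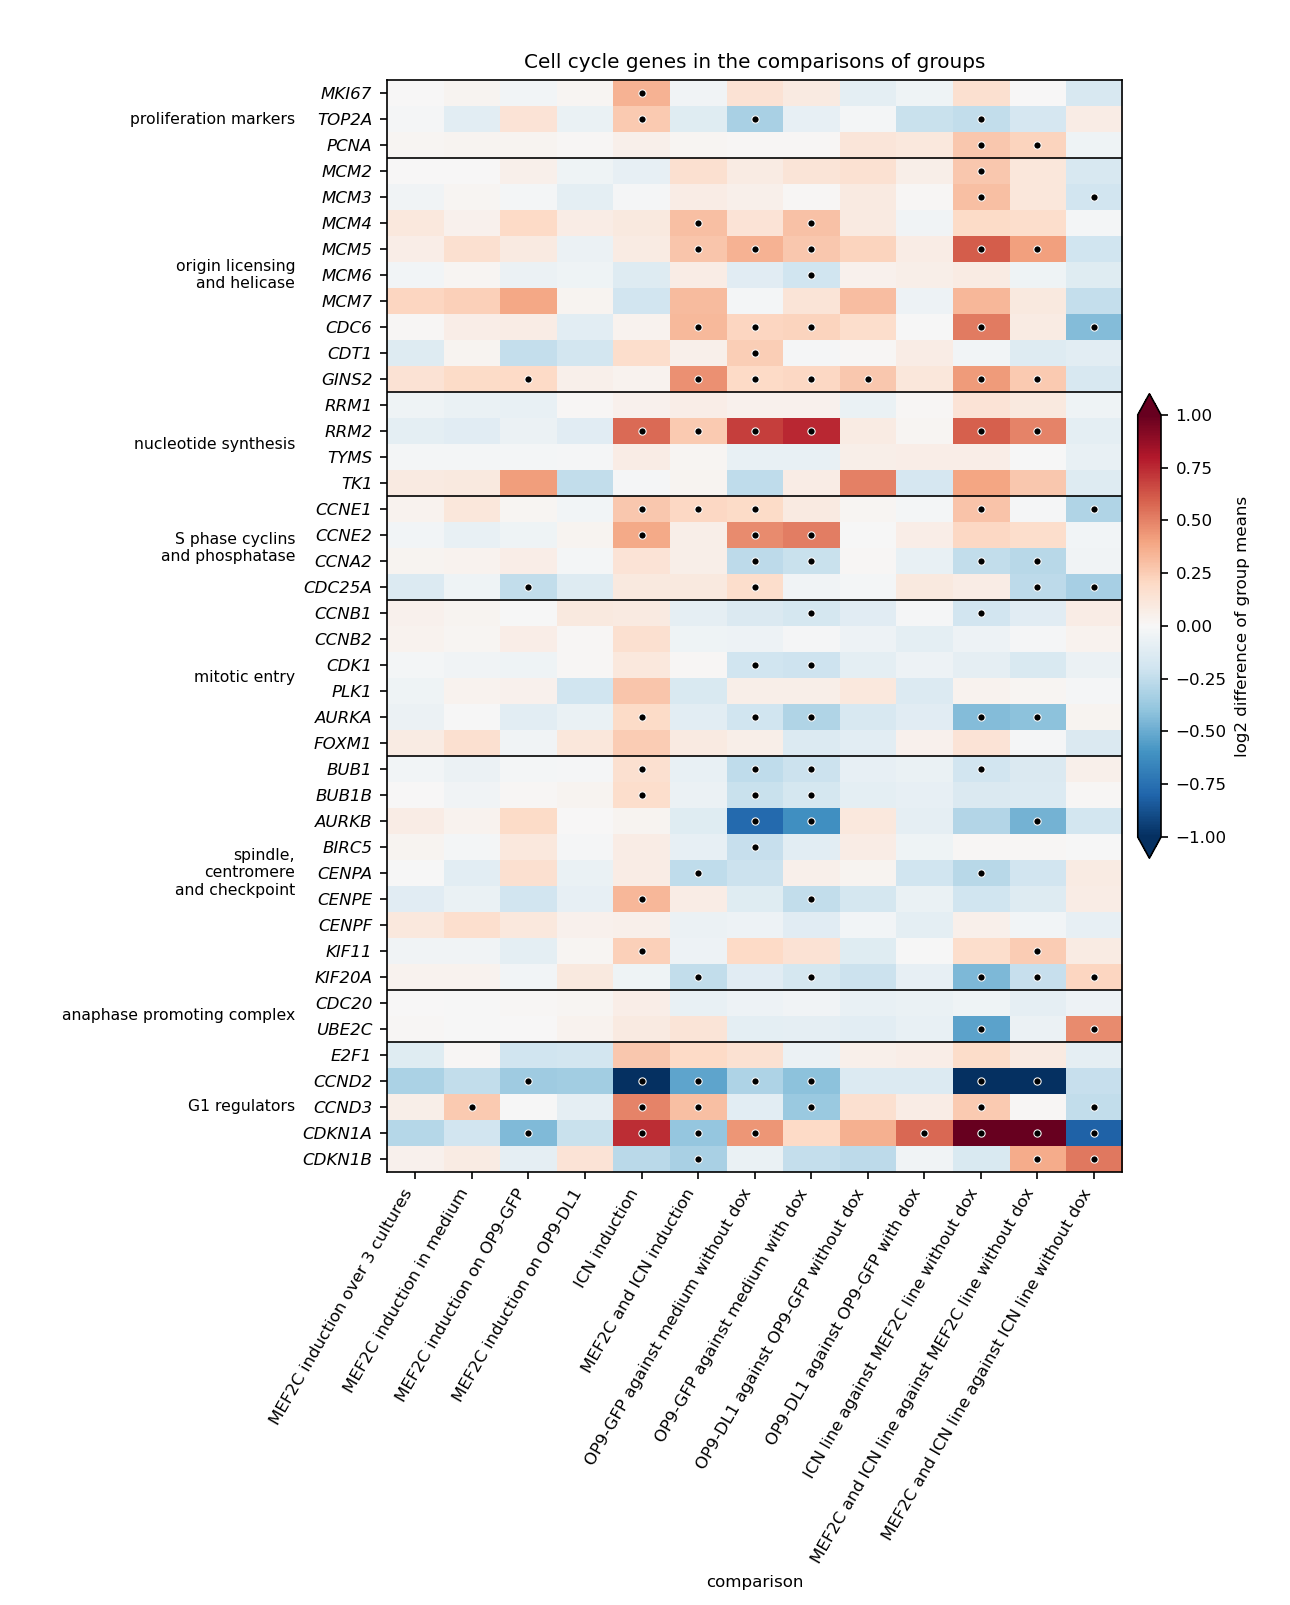
Log2 differences of the 42 cell cycle genes (rows, by role) in 13 comparisons (columns), drawn from -1 to 1 with larger values shown at the limit, and with a black dot for an adjusted p under 0.05. The columns of MEF2C induction hold few dots, those of OP9-DL1 against OP9-GFP hold 1 each, and the other columns hold 9 to 19.

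MEF2C induction in the 3 cultures left the module close to its level without dox. The pooled comparison of 9 arrays with dox and 9 without asked which genes changed regardless of culture. None of the 42 genes was called by limma, against 3.40% of all genes called higher and 3.79% called lower, and 5 had an unadjusted p under 0.05. No gene of the 42 had groups that did not overlap, and the share of such genes among all genes was not computed. Differences between cultures count as spread in this fit and in these groups of 9 arrays. *RRM2* without dox had an SD of 0.37 over the pooled arrays and of 0.047 in medium. With culture as a covariate 4 genes were called (1 higher, 3 lower), and in a fit over all 30 arrays 7 were called (3 higher, 4 lower). No share over all genes was computed for these other fits. The median log2 difference was 0.005 for the module and -0.012 for all genes, and 40 of the 42 95% confidence intervals lay within 0.5 of 0. *MKI67*, which encodes the proliferation antigen Ki-67, differed by 0.01 (95% CI, -0.09 to 0.11, adjusted p = 0.976). The smallest adjusted p was that of *CDC25A*, the phosphatase that activates CDK2 at the start of S phase. Its levels ran from 9.42 through a median of 9.59 to 9.67 without dox and from 9.35 through 9.41 to 9.54 with dox. The difference was -0.14 ± 0.047 (SE, n = 9 per arm, adjusted p = 0.102). The intervals that reached beyond 0.5 included *CCND2*, which encodes cyclin D2, at -0.32 (95% CI, -0.54 to -0.09, adjusted p = 0.107), and *CDKN1A* at -0.28 (95% CI, -0.60 to 0.03, adjusted p = 0.388).

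Within the single cultures, MEF2C induction changed 1 gene of the module without stroma, 4 on OP9-GFP stroma and 0 on stroma with the Notch ligand. In medium, *CCND3*, which encodes cyclin D3, stood at 10.59, 10.51 and 10.66 without dox and at 10.93, 10.84 and 10.78 with dox. The groups did not overlap, and *CCND3* rose by 0.26 ± 0.058 (adjusted p = 0.00393). It was the one gene called in medium, where 5.03% of all genes were higher and 3.58% lower, and 7 of the 42 had an unadjusted p under 0.05. Without dox array 3 in medium, 2 genes were called. The call was lost with the mean of both *CCND3* probe sets, of which one is dim (0.12, adjusted p = 0.561), and with only the groups compared in the fit (adjusted p = 0.181). The same gene differed by -0.00 on OP9-GFP (95% CI, -0.12 to 0.12, adjusted p = 0.994) and by -0.09 on OP9-DL1 (adjusted p = 0.607). The test of the difference of the *CCND3* response between OP9-GFP and medium gave -0.27 (adjusted p = 0.284).

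On OP9-GFP, *CDKN1A* stood at 7.20, 7.22 and 7.14 without dox and at 6.72, 6.69 and 6.82 with dox, with no overlap. It fell by 0.44 ± 0.092 on the log2 scale, to 0.737 of its level (adjusted p = 0.00286). *CDC25A* stood at 9.66, 9.67 and 9.57 without dox and at 9.36, 9.36 and 9.43 with dox. It fell by 0.25 ± 0.060 (adjusted p = 0.00903). *CCND2* also fell, by 0.35 ± 0.106 (adjusted p = 0.046). *GINS2*, a subunit of the GINS complex of the replicative helicase, rose by 0.20 ± 0.061 (adjusted p = 0.0467). The background on OP9-GFP was 3.03% of all genes called higher and 4.58% lower, so that 1 gene higher and 3 lower of 42 is near it. With each array centred on its median, 0 were higher and 2 lower. Without the second array without dox, or without any of the 3 dox arrays, 2 genes were called. *CDKN1A* kept its call under each other setting tried apart from stricter call criteria, and *CDC25A* was positive (0.17, not called) when read from its most variable probe set.

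The other cultures gave the same genes these values without a call. *CDKN1A* differed by -0.19 in medium (adjusted p = 0.281) and by -0.22 on OP9-DL1 (adjusted p = 0.261). *CCND2* differed by -0.25 in medium (adjusted p = 0.209) and by -0.35 on OP9-DL1 (adjusted p = 0.0642, the smallest there). *GINS2* differed by 0.19 in medium (adjusted p = 0.0637). On OP9-DL1, 2.57% of all genes were called higher and 3.33% lower, none of the 42 was called by limma, and 5 had an unadjusted p under 0.05. The responses in the cultures were compared directly as well. The difference between OP9-GFP and medium was called in 0 of the 42 genes by limma (0.491% of all genes, 5 at an unadjusted p under 0.05), and that between OP9-DL1 and OP9-GFP in 0 (0.131% of all genes, 2 at an unadjusted p under 0.05). The smallest adjusted p among the 42 was 0.284 for the first and 0.583, for *TK1*, for the second.

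Wider lists of cell cycle genes were counted in the same fits. The shares of all genes called higher and lower were 3.40% and 3.79% in the pooled comparison and 5.03% and 3.58% in medium. They were 3.03% and 4.58% on OP9-GFP and 2.57% and 3.33% on OP9-DL1. Of 60 further genes of mitosis, at most 1 was called in each direction in any culture of the MEF2C line. None of 45 further genes of replication licensing and forks was called in the pooled comparison. Among 38 further G1/S regulators, 3 were higher and 2 lower in the pooled comparison, and 5 were higher and 1 lower in medium. Without the first OP9-GFP dox array the pooled count of lower genes was 0, and without the first array in medium without dox 3 were higher in medium. In medium *E2F3* rose by 0.54, *E2F5* by 0.52 and *E2F8* by 0.29, all members of the E2F family, and *CDK6*, a kinase partner of D-type cyclins, fell by 0.25. On OP9-DL1 *TFDP2*, a dimer partner of E2F, rose by 0.40 and *E2F3* by 0.34, while *RB1*, which encodes the retinoblastoma protein, fell by 0.47. Of 21 checkpoint and DNA damage response genes, 1 was higher and 1 lower in the pooled comparison. *TP53INP1*, an antiproliferative stress response gene, rose by 1.79 there (3.47-fold), and its differences by culture were 2.11 with OP9-DL1, 1.90 without stroma and 1.37 with OP9-GFP. *GADD45A*, a stress response gene, fell by 0.34 in the pooled comparison, a call that was lost without the second array in medium without dox. Of 19 antiproliferative genes, 1 was higher and 2 were lower in the pooled comparison. *KLF2*, a quiescence factor of T cells, rose by 0.81, with 0.56 to 0.95 in the single cultures. *TXNIP* fell by 0.41, and it fell in each culture (-0.47 to -0.38). *TSC22D3* fell by 0.29.

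Culture on OP9-GFP stroma, compared with medium, was accompanied by higher levels of some S phase genes, led by *RRM2* and *CCNE2*, and by lower levels of several mitotic genes, led by *AURKB*. Without dox, 9 genes rose and 9 fell (21.4% each way, against 10.8% of all genes higher and 11.5% lower). With dox, 6 rose and 12 fell (14.3% and 28.6%, against 7.64% and 13.0%). The arrays with and without dox share no sample, and 12 genes were called in both comparisons, 66.7% of each set and all in the same direction. These were *MCM5*, *CDC6*, *GINS2*, *RRM2* and *CCNE2*, which rose, and *CCNA2*, *CDK1*, *AURKA*, *BUB1*, *BUB1B*, *AURKB* and *CCND2*, which fell. The direction of 2 of these rests on the probe set, since *CCND2* without dox was 0.20 with the mean of its probe sets and *AURKA* with dox was 0.029 with its most variable one. Over the 42 genes 35 had the same sign. The differences correlated at r = 0.852 over the 42 genes and at 0.762 over all genes. Genes on shared arrays are not independent, and the value is a description.

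**Figure D2:**
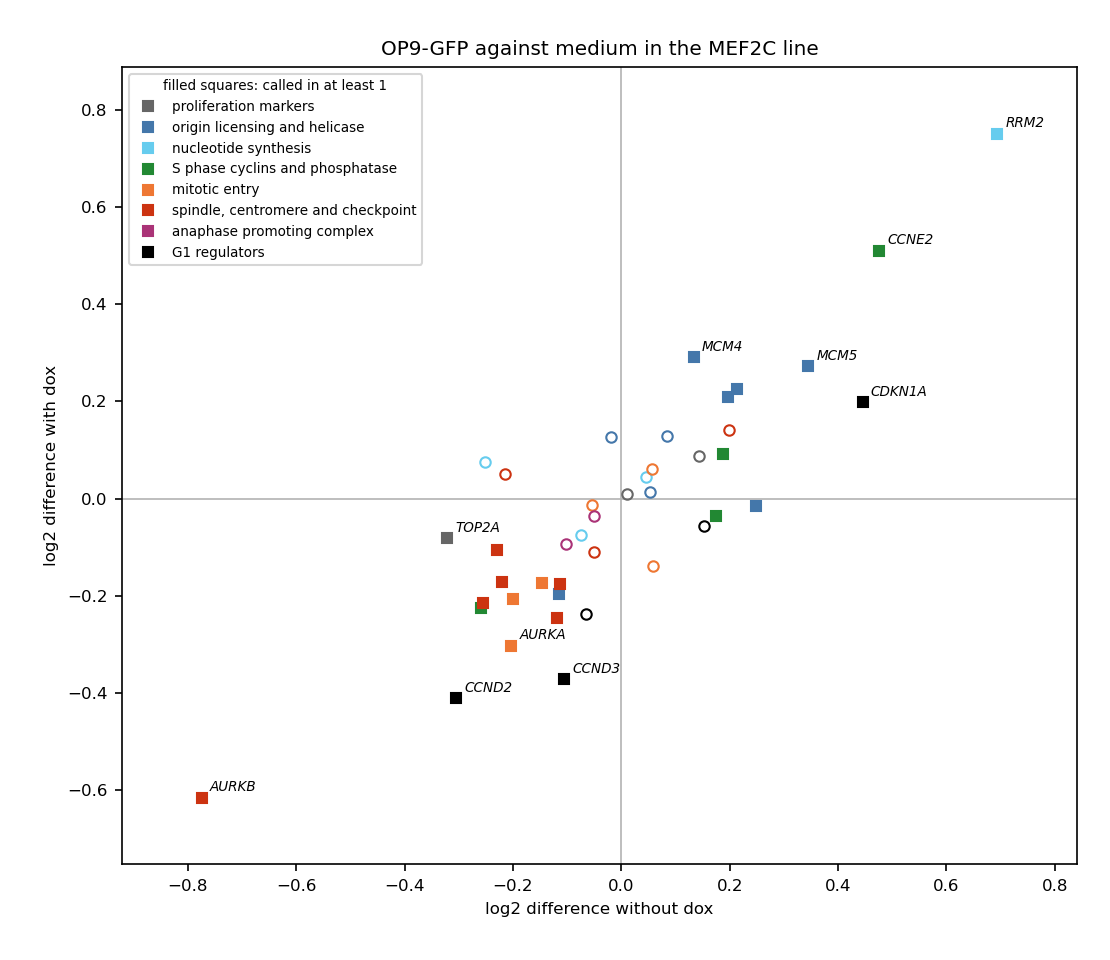
Log2 difference between OP9-GFP stroma and medium in the MEF2C line, without dox (horizontal) and with dox (vertical), for each of the 42 genes, coloured by role. Filled squares were called in at least 1 of both comparisons and open circles in neither. *RRM2* and *CCNE2* lie farthest up and right, and *AURKB* lies lowest on both axes.

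*RRM2*, the regulated subunit of ribonucleotide reductase, showed the largest rise. It stood at 10.38, 10.47 and 10.42 in medium and at 11.11, 11.15 and 11.09 on OP9-GFP without dox. With dox it stood at 10.27, 10.40 and 10.26 in medium and at 11.07, 11.09 and 11.03 on OP9-GFP. The rise was 0.69 ± 0.053 without dox (1.62-fold, adjusted p = 6.19e-10) and 0.75 ± 0.053 with dox (1.68-fold, adjusted p = 1.54e-10). *CCNE2*, which encodes cyclin E2, stood at 9.65, 9.67 and 9.43 in medium and at 9.99, 10.18 and 9.99 on OP9-GFP without dox. It rose by 0.48 ± 0.079 (1.39-fold, adjusted p = 7.67e-05) and with dox by 0.51 ± 0.079 (1.42-fold, adjusted p = 3.19e-05). *MCM5*, a subunit of the MCM2-7 helicase, rose by 0.34 ± 0.067 without dox (adjusted p = 0.000456) and by 0.27 with dox (adjusted p = 0.00436). *CDC6*, the loader of the helicase, rose by 0.21 without and by 0.23 with dox, and *GINS2* by 0.20 and by 0.21. Of the 9 licensing genes 4 rose and 0 fell without dox, and 4 rose and 1 (*MCM6*, -0.20) fell with dox. Of the 4 S phase cyclin and phosphatase genes 3 rose and 1 (*CCNA2*) fell without dox, and 1 rose and 1 (*CCNA2*) fell with dox. Without 1 array of the medium group (the first without dox, or the second with dox) 1 licensing gene was called higher, and centring each array left 2 with dox. *CDT1*, the fourth licensing gene without dox, had overlapping groups, and its other probe set differed by -0.34.

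*AURKB*, the kinase of the chromosomal passenger complex, showed the largest fall. It stood at 9.66, 9.70 and 9.82 in medium and at 9.18, 8.59 and 9.07 on OP9-GFP without dox. With dox it stood at 9.89, 9.69 and 9.70 in medium and at 9.18, 9.14 and 9.11 on OP9-GFP. *AURKB* fell by 0.77 ± 0.114 without dox (to 0.585 of its level, adjusted p = 1.65e-05) and by 0.62 ± 0.114 with dox (to 0.653, adjusted p = 0.000278). The second OP9-GFP array without dox was low for *AURKB*, and without it the difference was -0.60 (adjusted p = 0.000111). The same array was low for *TK1* (7.59, against 8.72 and 8.68) and *MCM7* (9.72, against 10.35 and 10.39).

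The kinases of the spindle checkpoint, *BUB1* and *BUB1B*, fell as well. *BUB1* stood at 9.87, 9.94 and 9.88 in medium and at 9.67, 9.66 and 9.61 on OP9-GFP without dox, and fell by 0.26 ± 0.053 (adjusted p = 0.000971). With dox it fell by 0.21 (adjusted p = 0.005). *BUB1B* fell by 0.22 without dox (adjusted p = 0.00383) and by 0.17 with dox (adjusted p = 0.0236). Of the 9 spindle genes, 4 fell without dox and 5 with dox, and none rose. Of the 6 mitotic entry genes 2 fell without dox and 3 with dox, with *AURKA*, which encodes the Aurora A kinase of the centrosome, among them (-0.20 and -0.30). With each array centred 0 mitotic entry genes fell without dox, without dox array 3 in medium 1 mitotic entry gene fell with dox, and without dox array 2 in medium 2 spindle genes fell with dox. *TOP2A*, the topoisomerase that resolves sister chromatids, fell by 0.32 ± 0.081 without dox (adjusted p = 0.00525), while a dimmer probe set of it differed by -0.11 (adjusted p = 0.296). The groups of *CCNE1*, *CDK1* and *CCND2* without dox overlapped although they were called.

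**Figure D3:**
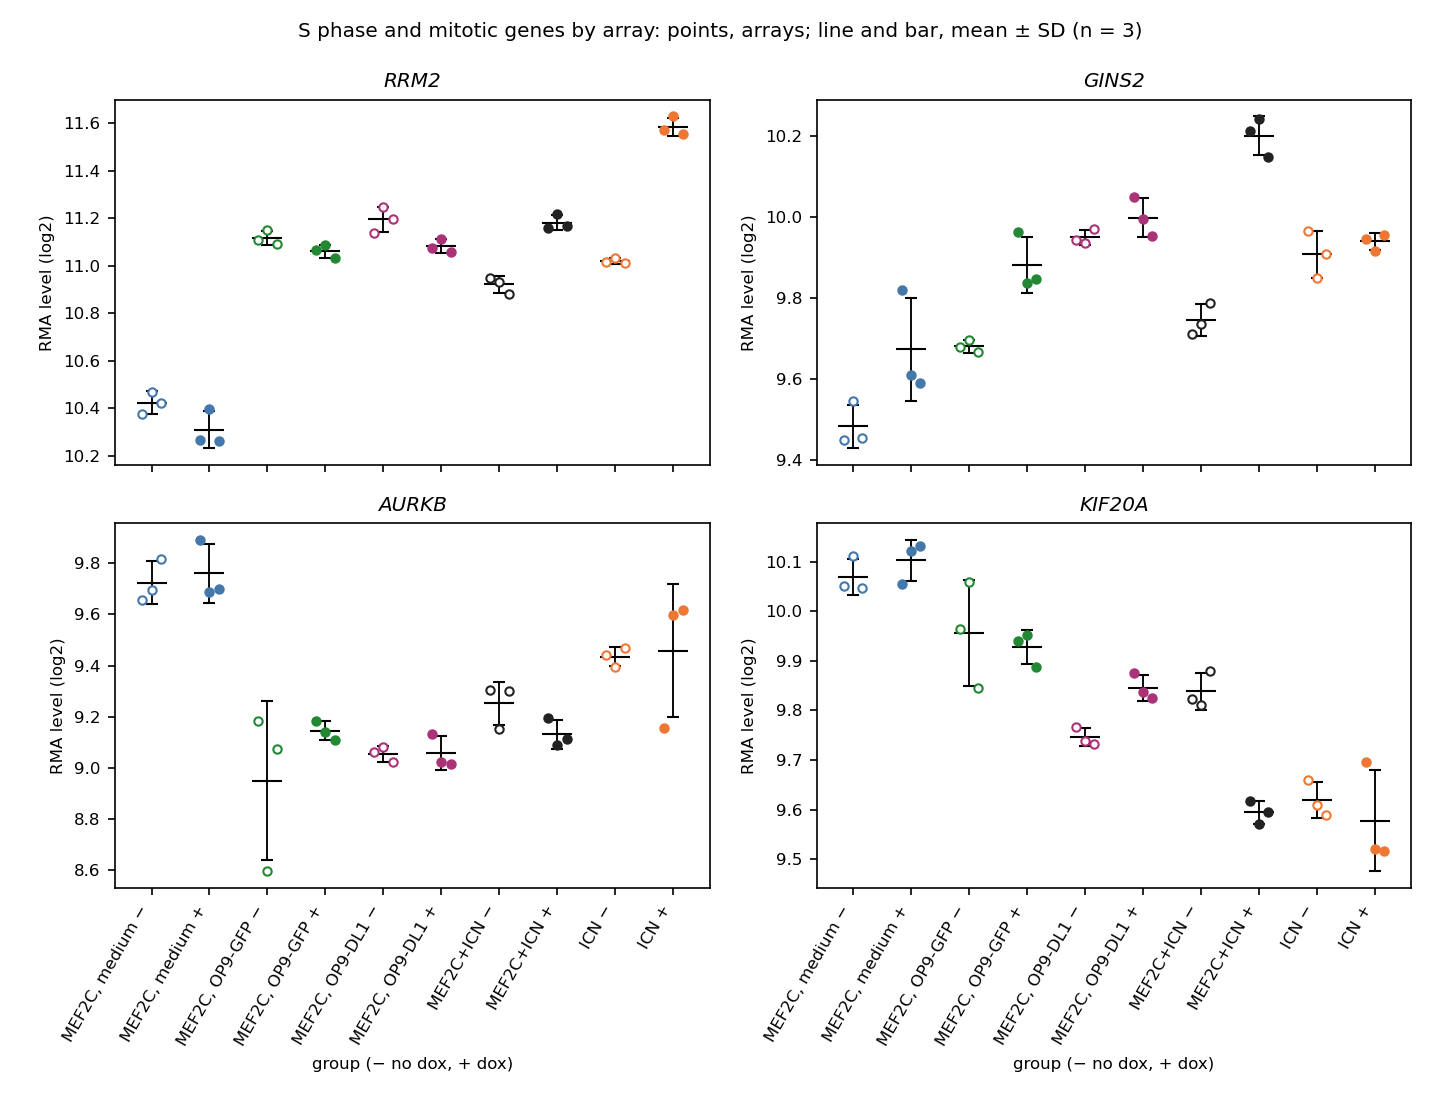
Log2 level of *RRM2*, *GINS2*, *AURKB* and *KIF20A* on each of the 30 arrays in the 10 groups. Points are arrays (open without dox, filled with dox), and lines and bars are the mean ± SD (n = 3). *RRM2* lies above 10.8 in all groups but the MEF2C line in medium, and *AURKB* lies highest in that line in medium.

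These counts depended on the arrays in medium. Without the first array in medium without dox 11 of the 42 genes were called rather than 18, of which 4 rose. Without the second array in medium without dox 5 fell. With dox, 11 were called without the second or the third dox array in medium (lowest counts 3 higher and 6 lower, respectively). *RRM2*, *CCNE2* and *AURKB* kept their calls under every setting tried apart from stricter call criteria in both comparisons, as did *CDKN1A* without dox and *MCM5* with dox. The mean level over the 25 stromal markers was 4.35 to 4.47 on the arrays in medium without dox and 4.39, 4.56 and 4.71 on the OP9-GFP arrays without dox. With dox it was 4.22 to 4.27 and 4.26 to 4.39. Their part in the result was not tested. Stroma and any added cytokines cannot be told apart.

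The wider lists were counted in the same fit, where 10.8% of all genes were higher and 11.5% lower without dox. With dox these shares were 7.64% and 13.0%. Of the 60 further mitotic genes, 3 rose and 15 fell without dox, and 1 rose and 15 fell with dox. Without the second array in medium without dox 9 fell, and without the second dox array in medium 10 fell. *PTTG1*, which encodes securin, fell (-0.43 without and -0.53 with dox), as did *SPC24*, a subunit of the NDC80 kinetochore complex (-0.43 and -0.45). *FAM83D*, a spindle protein, rose by 0.37 and 0.33. Of the 45 further replication genes 11 rose and 6 fell without dox, and 7 rose and 8 fell with dox, or 5 fell without the third OP9-GFP dox array. *TIPIN*, a fork protection protein, rose by 0.77 and 0.71 and *ORC5*, a subunit of the origin recognition complex, by 0.66 and 0.34, while *ASF1B*, a histone chaperone, fell (-0.41 and -0.29). Of 21 checkpoint and DNA damage response genes, 1 rose and 8 fell without dox and 1 rose and 10 fell with dox. *CHEK1*, which encodes the kinase CHK1, rose by 0.42 and 0.41, and *SESN2*, a stress response gene, fell (-2.38 and -1.99).

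OP9-DL1 stroma, compared with OP9-GFP, tested the presence of the Notch ligand on the same stroma. It changed 1 gene of the module without dox and 1 with dox. Without dox, *GINS2* stood at 9.68, 9.70 and 9.67 on OP9-GFP and at 9.94, 9.94 and 9.97 on OP9-DL1. It rose by 0.27 ± 0.061 (adjusted p = 0.0191), against a background of 1.02% of all genes higher and 0.612% lower. Without any 1 of the 3 OP9-DL1 arrays no gene was called, and a more variable probe set of *GINS2* differed by -0.05. All 9 licensing genes had values above 0, and 12 of the 42 genes had an unadjusted p under 0.05.

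With dox, *CDKN1A* stood at 6.72, 6.69 and 6.82 on OP9-GFP and at 7.35, 7.30 and 7.30 on OP9-DL1. It rose by 0.57 ± 0.092 (1.49-fold, adjusted p = 0.000617), against a background of 0.920% higher and 0.480% lower. Without dox *CDKN1A* differed by 0.35 (adjusted p = 0.0544). *GINS2* with dox differed by 0.12 (adjusted p = 0.586). The mean of the 25 stromal markers was 4.36 to 4.47 on the OP9-DL1 arrays without dox and 4.26 to 4.34 with dox.

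Induction of ICN in the ICN line was followed by higher levels of 12 of the 42 genes and a lower level of 1. These are 28.6% and 2.38%, against 6.44% of all genes higher and 9.42% lower. The median difference was 0.09 for the module and -0.03 for all genes, and 34 of 42 genes had values above 0. The genes that rose included the proliferation markers *MKI67* and *TOP2A*, *RRM2*, both cyclin E genes, *AURKA* and 4 of the 9 spindle genes, beside *CCND3* and *CDKN1A*. None of the 9 licensing genes was called. *CCND2* alone fell.

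*RRM2* stood at 11.02, 11.03 and 11.01 without dox and at 11.57, 11.63 and 11.56 with dox. It rose by 0.57 ± 0.053 (1.48-fold, adjusted p = 1.04e-08). *MKI67* stood at 9.63, 9.69 and 9.61 and at 10.04, 9.95 and 9.99, and rose by 0.35 ± 0.064 (1.27-fold, adjusted p = 0.000367). Its 4 probe sets differed by 0.17 to 0.56. *CCNE2* stood at 9.71, 9.88 and 9.77 without dox and at 10.20, 10.13 and 10.15 with dox. It rose by 0.38 ± 0.079 (1.3-fold, adjusted p = 0.00145), and *CCNE1* by 0.27 ± 0.064 (adjusted p = 0.0044). The call of *CCNE2* was lost with its most variable probe set (limma, adjusted p = 0.285). That of *CCNE1* was lost with the mean of its probe sets and with only the groups compared in the fit. *TOP2A*, at 0.26 (limma, adjusted p = 0.032), lost its call under 7 settings, both probe set rules among them.

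The spindle genes that rose were *CENPE*, a kinetochore motor (0.33 ± 0.082, adjusted p = 0.00636), *KIF11*, the motor that separates the spindle poles (0.24 ± 0.077, adjusted p = 0.0388), *BUB1* (0.16 ± 0.053, adjusted p = 0.0486) and *BUB1B* (0.18 ± 0.053, adjusted p = 0.026). *BUB1* stood at 9.65, 9.80 and 9.67 without dox and at 9.85, 9.91 and 9.85 with dox. The sign changed with the mean of all its probe sets (-0.0083), and the call was lost under 8 other settings. Of these 4 calls 1 was left when each array was centred on its median, and 1 without the first array without dox of the ICN line. *AURKA* rose by 0.19 ± 0.063 (adjusted p = 0.0414), with a second bright probe set at 0.25 and a dim one at -0.17. All 6 mitotic entry genes had values above 0, with *PLK1* at 0.28 (adjusted p = 0.142) and *FOXM1*, a transcription factor of the mitotic genes, at 0.26 (adjusted p = 0.061). *KIF20A*, a kinesin of cytokinesis, differed by -0.04 (adjusted p = 0.75) and *GINS2* by 0.03 (95% CI, -0.09 to 0.16).

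Of the module, the G1 regulators *CCND2* and *CDKN1A* differed most. *CCND2* stood at 6.59, 6.45 and 6.33 without dox and at 5.56, 5.19 and 5.24 with dox, and fell by 1.13 ± 0.106 (to 0.458 of its level, adjusted p = 1.3e-08). *CCND3* stood at 10.89, 10.78 and 10.88 and at 11.30, 11.32 and 11.40, and rose by 0.49 ± 0.058 (1.41-fold, adjusted p = 5.32e-07). *CDKN1A* stood at 9.17, 9.01 and 9.18 and at 9.84, 9.90 and 9.83, and rose by 0.74 ± 0.092 (1.67-fold, adjusted p = 1.49e-06). None of these groups overlapped. *CDKN1B* differed by -0.27 (adjusted p = 0.0716) and *E2F1*, the leading E2F activator, by 0.27 (adjusted p = 0.133). *MKI67*, *RRM2*, *CCND2*, *CCND3* and *CDKN1A* kept their calls under every setting tried apart from stricter call criteria. The first dox array of the ICN line was low for *TK1* (8.35, against 9.25 and 9.29) and *MCM7* (9.99, against 10.47 and 10.48). Without it 8 genes of the module were called.

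Of the 60 further mitotic genes 29 rose and 0 fell upon ICN induction (48.3% higher), and 55 had values above 0, with a median of 0.21. Between 22 and 27 rose when any 1 array was left out. The largest rises were those of *CDCA2*, a chromatin regulator of mitotic exit (0.55), *FAM83D* (0.51) and *CENPI*, a centromere protein (0.50). Of the 45 replication genes 3 rose and 1 fell, among them *GMNN*, which encodes geminin, the inhibitor of CDT1 (0.77). Of the 38 G1/S regulators 7 rose and 4 fell, and 4 rose without the second array without dox. *CDC25C*, the phosphatase of mitotic entry, rose by 0.47, *SKP2*, the ubiquitin ligase subunit that degrades p27, fell by 0.33, and *CDK4* fell by 0.29. Among all genes, 6.44% were called higher and 9.42% lower upon ICN induction.

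Joint induction of MEF2C and ICN gave another pattern, in which 7 genes rose and 5 fell (16.7% and 11.9%, against 5.84% of all genes higher and 10.9% lower). The share that fell is near that of all genes. The median difference was 0.02 for the module and 0.03 for all genes. All 9 licensing genes had values above 0 (median 0.28), and 4 rose. The 60 further mitotic genes were divided, with 3 higher and 5 lower, or 1 higher and 5 lower with each array centred.

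*GINS2* stood at 9.71, 9.74 and 9.79 without dox and at 10.21, 10.24 and 10.15 with dox. It rose by 0.46 ± 0.061 (1.37-fold, adjusted p = 2.81e-06). The call was lost with the most variable probe set of *GINS2* (limma, adjusted p = 0.264). *CDC6* stood at 8.65, 8.48 and 8.63 without dox and at no less than 8.83 on any dox array, and rose by 0.32 ± 0.064 (adjusted p = 0.000637). *MCM5* rose by 0.28 ± 0.067 (adjusted p = 0.0046) and *MCM4* by 0.30 ± 0.099 (adjusted p = 0.0431), the latter with overlapping groups. Beyond licensing, *RRM2* stood at 10.95, 10.93 and 10.88 and at 11.16, 11.22 and 11.17, and rose by 0.26 ± 0.053 (adjusted p = 0.000791). *CCNE1* rose by 0.21 ± 0.064 (adjusted p = 0.0315), a call that was lost under 8 settings. *CCND3* stood at 10.59, 10.58 and 10.64 and at 10.88, 10.90 and 10.94, with no overlap, and rose by 0.30 ± 0.058 (adjusted p = 0.0004).

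The genes that fell were *CCND2*, *CDKN1A*, *CDKN1B*, *KIF20A* and *CENPA*, which encodes the centromeric histone. *CCND2* stood at 6.22, 6.13 and 6.34 without dox and at 5.75, 5.80 and 5.56 with dox, and fell by 0.53 ± 0.106 (to 0.695, adjusted p = 0.000778). *CDKN1A* stood at 8.42, 8.33 and 8.16 and at 8.09, 7.73 and 7.93, and fell by 0.39 ± 0.092 (to 0.765, adjusted p = 0.00426). *CDKN1B* stood at 9.09, 9.17 and 9.09 and at 8.85, 8.85 and 8.68, and fell by 0.32 ± 0.096 (adjusted p = 0.0227). All 3 were lower on each dox array than on each array without dox. *KIF20A* fell by 0.24 ± 0.059 (adjusted p = 0.00475) and *CENPA* by 0.25 ± 0.076 (adjusted p = 0.0256). *MKI67* differed by -0.03 (95% CI, -0.17 to 0.10). *MCM5*, *CDC6*, *RRM2* and *KIF20A* kept their calls under every setting tried apart from stricter call criteria. *CCND2* did so too except when all its probe sets were averaged, which gave 0.0093. *CDKN1A* was not called without the second dox array (-0.29, adjusted p = 0.0519), nor *CDKN1B* without array 2 or 3 without dox or dox array 3.

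Among the wider lists upon joint induction, 6 of 45 replication genes rose and 0 fell, with *GMNN* at 0.78, *CHAF1B*, a histone chaperone subunit, at 0.31 and *CDC45*, the partner of GINS in the helicase, at 0.29. Without the first dox array of this line 3 rose. Of 38 G1/S regulators 5 rose and 7 fell. *MYBL2*, which encodes B-MYB, rose by 0.67, while *CDKN2D*, the CDK4 and CDK6 inhibitor p19, fell by 1.39 and *SKP2* fell by 0.55. Of 19 antiproliferative genes 2 rose and 5 fell, with *TXNIP* at -1.16 and *CCNG2*, which encodes cyclin G2, at -0.38. Among all genes, 5.84% were called higher and 10.9% lower upon joint induction.

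The responses of the ICN line and of the MEF2C and ICN line share no arrays. *RRM2*, *CCNE1* and *CCND3* rose and *CCND2* fell in both, and *CDKN1A* rose in the former and fell in the latter. These 5 genes are 38.5% of the 13 called in the ICN line and 41.7% of the 12 called in the MEF2C and ICN line, and 22 of 42 genes had the same sign. The difference of the responses was tested directly and was called in 7 genes (16.7%, against 10.1% of all genes). Joint induction minus ICN induction was -1.13 ± 0.130 for *CDKN1A* (adjusted p = 7.45e-07), -0.38 ± 0.091 for *MKI67* (adjusted p = 0.00748), -0.38 ± 0.114 for *TOP2A* (adjusted p = 0.0395), -0.31 ± 0.075 for *RRM2* (adjusted p = 0.00897) and -0.30 ± 0.088 for *AURKA* (adjusted p = 0.0364). It was positive for *CCND2* (0.60 ± 0.150, adjusted p = 0.0109) and *GINS2* (0.42 ± 0.086, adjusted p = 0.00154). All 9 spindle genes and all 6 mitotic entry genes had values below 0, of which 0 and 1 were called, and 8 of the 9 licensing genes had values above 0, of which 1 was called. Of the 60 further mitotic genes 15 were called lower and 0 higher, with 54 below 0, and 7 were called lower without the third dox array of the MEF2C and ICN line. *MKI67*, *CCND2* and *CDKN1A* kept their calls under every setting tried apart from stricter call criteria. *TOP2A* (0.0079) and *AURKA* (0.23) were positive when read from their most variable probe sets. The call of *GINS2* was lost under that rule and with the mean of its probe sets.

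**Figure D4:**
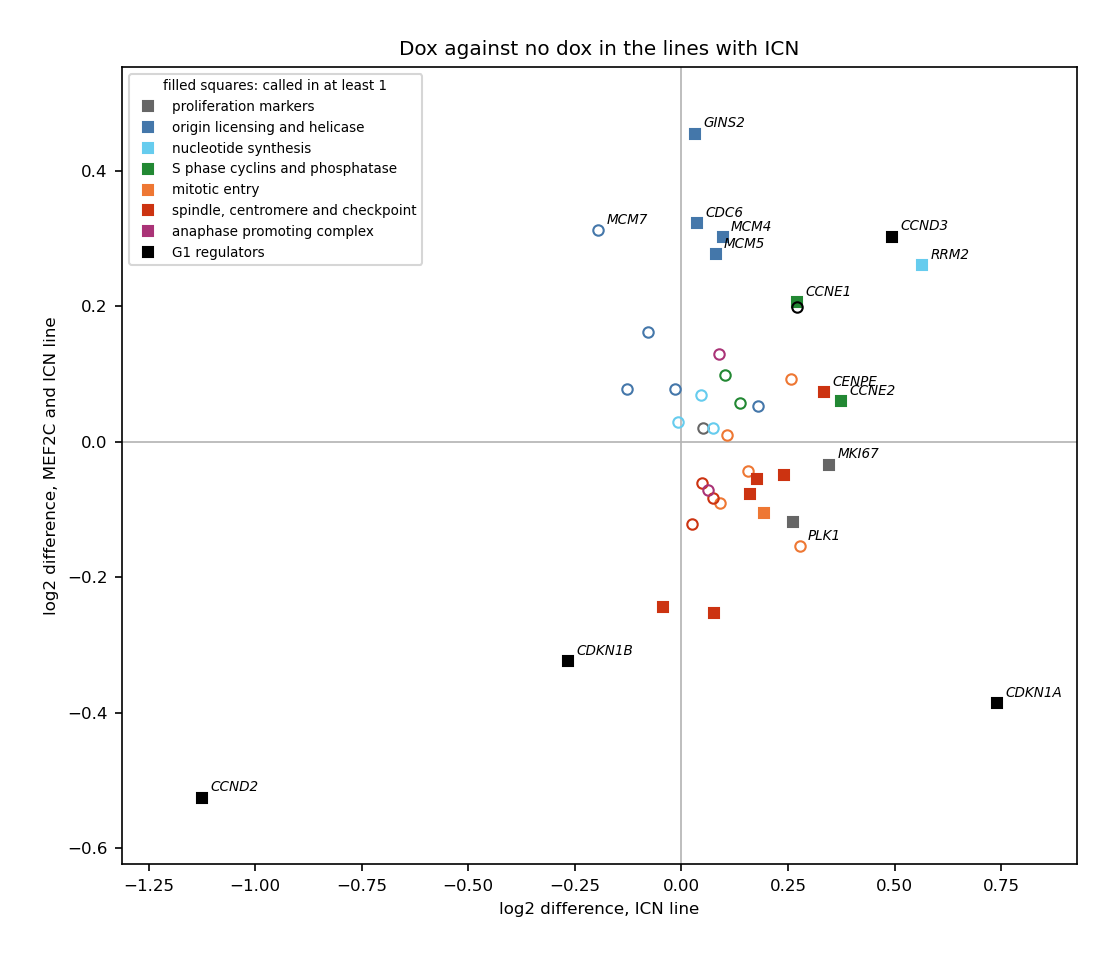
Log2 difference between dox and no dox in the ICN line (horizontal) and in the MEF2C and ICN line (vertical) for each of the 42 genes, coloured by role. Filled squares were called in at least 1 line and open circles in neither. *CDKN1A* lies right of and below 0, *CCND2* lies below 0 on both axes, and *GINS2* lies highest near 0 of the horizontal axis.

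Set against MEF2C induction in medium, the joint response differed in 2 genes of the module (4.76%, against 10.5% of all genes). It was higher by 0.37 ± 0.075 for *RRM2* (adjusted p = 0.00116) and lower for *KIF20A*, at -0.28 ± 0.083 (adjusted p = 0.0394). The call of *KIF20A* was lost on leaving out any one of 8 of the 12 arrays, while that of *RRM2* held under every setting tried apart from stricter call criteria. These differences compare lines made separately.

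Without dox the lines already differed in the module, which the dox comparisons within each line do not show. In the ICN line, 10 genes were higher and 9 lower than in the MEF2C line in medium (23.8% and 21.4%, against 12.9% of all genes higher and 12.3% lower), or 11 higher and 6 lower with each array centred. *CDKN1A* was higher by 2.38 ± 0.092, which is 5.2-fold (adjusted p = 5.89e-16). *MCM5* (0.61 ± 0.067, 1.52-fold), *RRM2* (0.60, 1.51-fold), *CDC6* (0.52 ± 0.064, 1.43-fold) and *GINS2* (0.42) were also higher. So were *MCM2*, *MCM3*, *PCNA*, *CCNE1* and *CCND3*, by 0.26 to 0.30. *CCND2* was lower by -1.19 ± 0.106, at 0.438 of its level in the MEF2C line (adjusted p = 5.17e-09). *UBE2C*, the ubiquitin conjugating enzyme of the anaphase promoting complex, stood at 11.22, 11.31 and 11.28 in the MEF2C line and at 10.87, 10.68 and 10.67 in the ICN line, lower by -0.53 ± 0.059 (adjusted p = 2.24e-07). *KIF20A* (-0.45 ± 0.059) and *AURKA* (-0.43 ± 0.063) were lower as well. Of the 45 further replication genes 21 were higher and 1 lower, and of the 60 further mitotic genes 7 were higher and 14 lower, or 7 and 7 with each array centred. Without the third array of the ICN line without dox 7 of these mitotic genes were lower, and without the first array in medium 3 were higher.

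The MEF2C and ICN line without dox had 7 genes higher and 6 lower than the MEF2C line in medium (16.7% and 14.3%, against 12.0% and 11.9% of all genes). Both shares are near those of all genes. *CDKN1A* was again higher, by 1.57 (2.96-fold, adjusted p = 2.03e-12), and *CCND2* lower, at -1.42 (0.374 of its level, adjusted p = 1.97e-10). *RRM2* (0.50), *MCM5* (0.41) and *CDKN1B* (0.37) were higher, and *AURKB* (-0.47) and *AURKA* (-0.41) lower. Both line comparisons use the same arrays of the MEF2C line. Compared with the ICN line, the MEF2C and ICN line had 3 genes higher and 6 lower (7.14% and 14.3%, against 3.73% and 5.15%). *CDKN1B* was higher by 0.53 (1.44-fold, adjusted p = 0.000547) and *UBE2C* by 0.47 (1.39-fold, adjusted p = 3.77e-06), while *CDKN1A* was at -0.81 (0.57 of its level, adjusted p = 7.04e-07) and *CDC6* at -0.43 (0.74, adjusted p = 3.87e-05). All 9 licensing genes had values below 0.

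The checkpoint and DNA damage response genes, several of which are known to be regulated along with *CDKN1A*, also differed between the lines. Of 21 such genes 12 were higher and 2 lower in the ICN line than in the MEF2C line without dox, with *ZMAT3* at 2.04, *TNFRSF10B*, which encodes a death receptor, at 1.74 and *MDM2* at 1.65, and with *SESN2* at -1.62. The MEF2C and ICN line had 8 of the 21 lower and 0 higher than the ICN line, with *ZMAT3* at -1.18 and *DDB2*, a DNA repair gene, at -1.04. Upon ICN induction, where *CDKN1A* rose, 1 of the 21 rose (*GADD45A*, by 0.75) and 5 fell, or 2 without the second array without dox. Upon joint induction, where *CDKN1A* fell, 8 rose, led by *TP53INP1*, an antiproliferative stress response gene (2.15, 4.45-fold), *TNFRSF10B* (0.69) and *ZMAT3* (0.46), and 1 fell (*PMAIP1*, by 0.57). The shares of all genes called higher and lower were 12.9% and 12.3% for the ICN line against the MEF2C line. They were 3.73% and 5.15% for the MEF2C and ICN line against the ICN line. Upon ICN induction they were 6.44% and 9.42%, and upon joint induction 5.84% and 10.9%.

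Over all 10 groups, *CDKN1A* was lowest in the MEF2C line in medium with dox (6.42 to 6.64) and highest in the ICN line with dox (9.83 to 9.90). In ascending order of group means came medium with dox, medium without dox and OP9-GFP with dox, whose neighbouring ranges overlapped, then OP9-GFP without dox (7.14 to 7.22), OP9-DL1 with dox (7.30 to 7.35) and OP9-DL1 without dox (7.43 to 7.70), and then the MEF2C and ICN line with dox (7.73 to 8.09) and without dox (8.16 to 8.42) and the ICN line without dox (9.01 to 9.18). From OP9-GFP without dox upward no neighbouring ranges overlapped. *CCND2* ran in a nearly opposite order over lines and cultures, from 7.51 to 7.80 in the MEF2C line in medium without dox to 5.19 to 5.56 in the ICN line with dox. Within a setting, dox went with lower means of both genes, except in the ICN line, where *CDKN1A* rose. Both falls were called only on OP9-GFP and upon joint induction. *CDKN1B* was highest in the MEF2C and ICN line without dox (9.09 to 9.17) and lowest in the ICN line with dox (8.29 to 8.37). *CCND3* was highest in the ICN line with dox (11.30 to 11.40) and lowest on OP9-GFP, at 10.41 to 10.54 with dox and 10.45 to 10.53 without. On OP9-GFP with dox *CCND3* was lower than in medium with dox by -0.37 ± 0.058 (adjusted p = 3.39e-05). With the mean of both its probe sets *CCND3* was called upon ICN induction but not upon joint induction or on OP9-GFP. *E2F1* was called in none of the 13 comparisons.

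**Figure D5:**
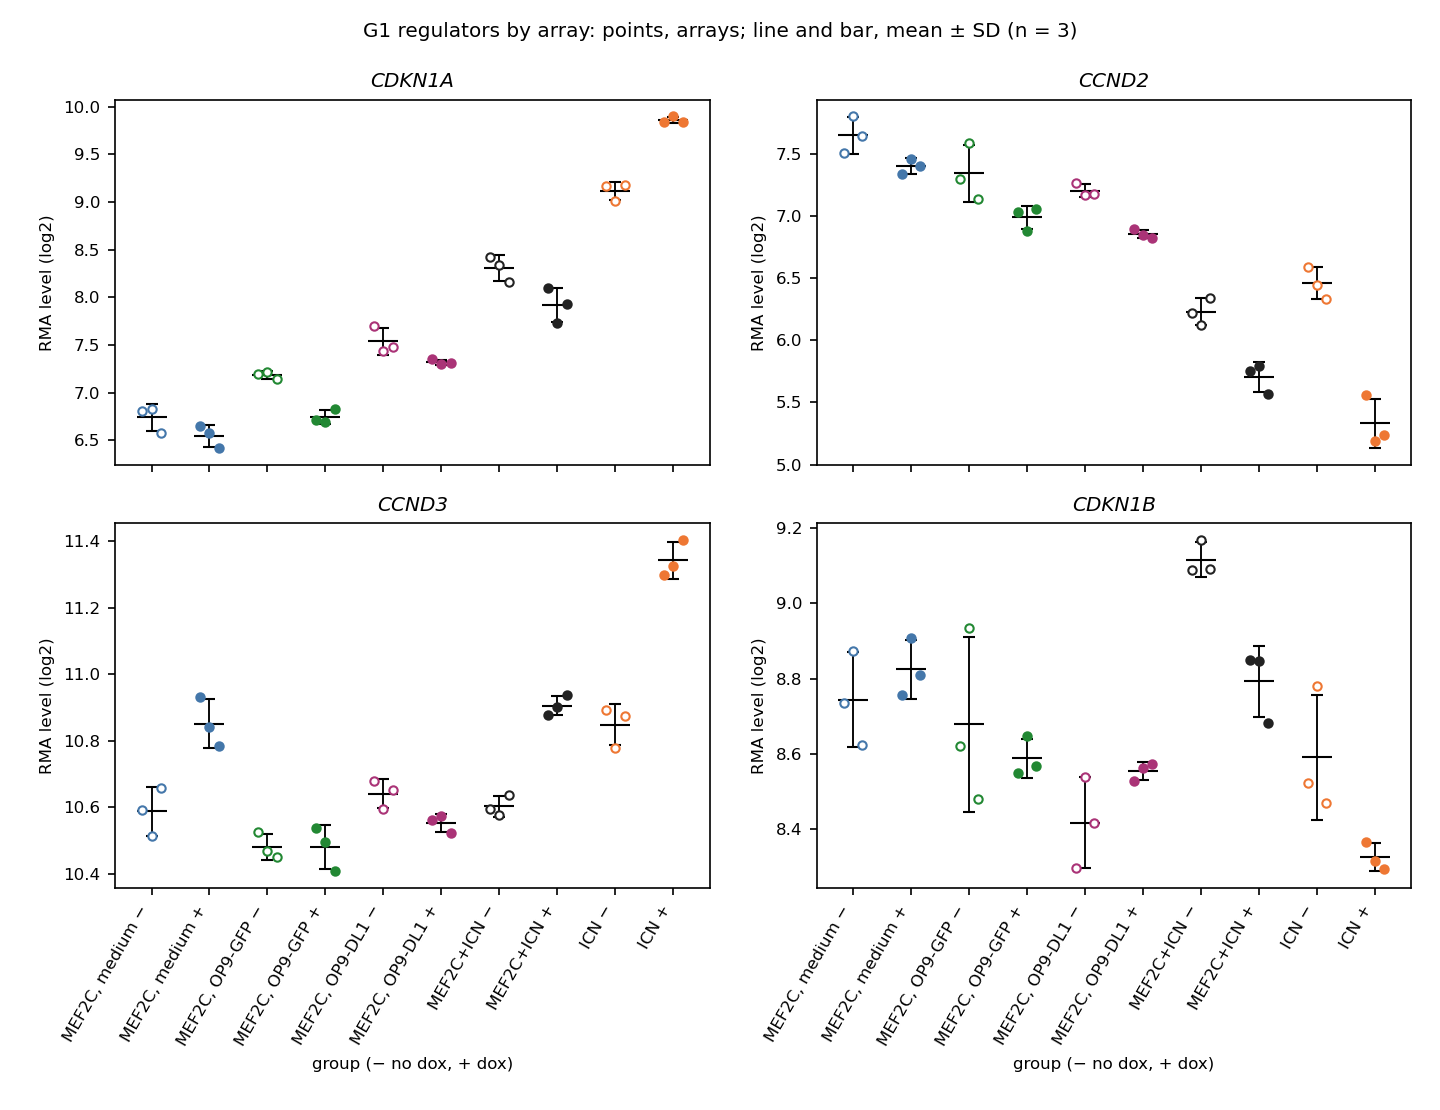
Log2 level of the G1 regulators *CDKN1A*, *CCND2*, *CCND3* and *CDKN1B* on each of the 30 arrays in the 10 groups. Points are arrays (open without dox, filled with dox), and lines and bars are the mean ± SD (n = 3). *CDKN1A* spans 6.42 to 9.90 and is highest in the ICN line, where *CCND2* with dox is lowest.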

How the data were processed

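Gene expression was measured in 30 LOUCY samples on HG U133 Plus 2.0 arrays. The deposited values are log2 intensities, background corrected, quantile normalized and summarized per probe set by RMA, by the authors (affy 1.64.0 in R 3.6.3, per the submitters' processing notes). No raw scanner values were used here. RMA draws all arrays to 1 distribution, so that a shift of most genes in one direction would not be seen.

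Of 54675 probe sets, 62 controls were left out and 54613 were tested with limma 3.58.1 in R 4.3.3. The pooled comparison of dox with no dox over 3 cultures used 18 arrays and no covariate, after the study's design. The other comparisons came from 1 model with 10 group means over all 30 arrays, with Benjamini-Hochberg adjustment over all probe sets tested and a call at an adjusted p under 0.05. Symbols came from the platform annotation, which gives 1 symbol to 41097 probe sets, several to 1801 and none to 11777, and 41043 were matched by gene ID. A gene was read from its brightest probe set with 1 symbol. Samples were grouped by line, stroma and overexpression as labelled. Overexpression was read as dox, and samples with no stroma named were read as grown in medium.

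The members and the lists were chosen with earlier results of these data known. All 42 genes could be named, with up to 6 called in each direction and the G1 regulators given with values in each comparison, and up to 3 called genes in each direction from the lists of replication, mitosis, G1/S, checkpoint and antiproliferative genes. The fit was tested on simulated data. Alternatives were a filter on dim probe sets (mean under 5), quantile normalization again, centring, a trended variance prior, controls kept, fewer or more arrays, the replicate number as a block, other probe set rules, stricter call criteria and leaving out each array. Precision is limited by the 3 arrays per group.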

Additional observations from a re-analysis of the deposited data

Results flagged for a closer look

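Of 84 sets of 9 arrays (the 42 genes in the 9 arrays with and the 9 without dox of the MEF2C line), 3 held 1 array that stood apart from the others. For 9 arrays of 1 culture chance would give about 1 in 20. These sets mix 3 cultures, so that this rate need not hold. *TK1* was at 7.59 and *KIF11* at 10.6 on the second OP9-GFP array without dox, and *CDC20* was at 10.1 on the first dox array in medium.

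Several genes responded differently to dox in different lines by a test of the difference itself. Joint induction minus MEF2C induction in medium was 0.37 for *RRM2* and -0.28 for *KIF20A*. Joint induction minus ICN induction was -1.13 for *CDKN1A*, -0.38 for *MKI67*, -0.38 for *TOP2A*, -0.31 for *RRM2*, -0.30 for *AURKA*, 0.42 for *GINS2* and 0.60 for *CCND2*. The lines were made separately, and line and construct cannot be told apart.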

How the results depend on the processing

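Of 118 called values of the 42 genes, 42 were called under every alternative apart from stricter call criteria, 75 lost the call under at least 1 and 13 changed sign under at least 1. Of the counts of called genes under the alternatives other than leaving out an array, 129 stayed within 1.5 times the reported count and 59 did not. The share of all genes called was not computed under the alternatives. A change in the counts below therefore cannot be told from a change over all genes. Where no construction is named, the cause was not tested.

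With dim probe sets left out (fewer tests), 1 gene was called over the 3 cultures, 3 in medium, 1 on OP9-DL1, 4 for OP9-DL1 against OP9-GFP without dox, and 6 and 16 for the joint response against that to MEF2C and to ICN. A trended prior gave 3 in medium, 1 on OP9-DL1, 4 for OP9-DL1 without dox, 1 for the difference of OP9-GFP and medium, and 5 and 16 for the joint response. Quantile normalization gave 1 over the 3 cultures, 2 for OP9-DL1 without dox and 4 for joint against MEF2C response. Centring gave 2 on OP9-GFP and 0 for OP9-DL1 without dox. With only the groups compared (fewer arrays), counts were 0 in medium, 1 on OP9-GFP, 1 on OP9-DL1, 6 for ICN, 4 and 10 for OP9-GFP against medium without and with dox, 0 for OP9-DL1 without dox, 7 for the MEF2C and ICN line against the MEF2C line, and 1 and 4 for the joint response. Over the 3 cultures all 30 arrays gave 7, and culture as a covariate 4.

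The mean of all probe sets gave 1 over the 3 cultures, 0 in medium, 1 on OP9-DL1 and 2 each for OP9-DL1 against OP9-GFP. The most variable probe set gave 2 on OP9-GFP, 11 for OP9-GFP against medium without dox, 3 for OP9-DL1 with dox and 4 for joint against ICN response. The study's criteria, which require a log2 fold change beyond 0.6, gave 0 in medium, on OP9-GFP, for joint induction, for both OP9-DL1 comparisons and for joint against MEF2C response, 1 for the MEF2C and ICN line against the ICN line, 3 for the ICN line against the MEF2C line, and 2 for ICN, OP9-GFP against medium without and with dox, the MEF2C and ICN line against the MEF2C line, and joint against ICN response. An adjusted p under 0.01 gave 2 on OP9-GFP, 8 for ICN, 9 for OP9-GFP against medium in both, 0 for OP9-DL1 without dox, and 1 and 4 for the joint response.

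With the most variable probe set, signs changed for *CDC25A* upon MEF2C induction on OP9-GFP (0.17), *AURKA* upon ICN (-0.17), *CDT1* (-0.34) and, with dox, *AURKA* (0.029) for OP9-GFP against medium, *GINS2* on OP9-DL1 (-0.053), *TOP2A* (0.38) and *BUB1* (0.32) in the ICN line, *CDC25A* in the MEF2C and ICN line (0.0033), and *TOP2A* (0.0079) and *AURKA* (0.23) for joint against ICN response. With the mean of probe sets they changed for *BUB1* upon ICN (-0.0083), *CCND2* upon joint induction (0.0093), and *CDT1* (-0.048) and *CCND2* (0.20) on OP9-GFP. Each such value rests on another or a dimmer probe set of the gene.

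When 1 array was left out, counts were 0 over the 3 cultures, 1 to 2 in medium, 2 to 6 on OP9-GFP, 0 on OP9-DL1, 8 to 11 for ICN, 8 to 10 for joint induction, 11 to 15 and 11 to 16 for OP9-GFP against medium without and with dox, 0 to 1 and 1 for OP9-DL1, 17 to 20 and 12 to 13 for the ICN line and the MEF2C and ICN line against the MEF2C line, 7 to 8 between the ICN lines, 0 for both culture differences, and 1 to 3 and 5 to 7 for the joint response.

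Over all probe sets tested, deviations from the group mean correlated at -0.0926 to 0.187 between dox and no dox arrays of the same replicate number. The labels do not say whether the numbers pair arrays. These correlations, from 3 arrays per group and mostly over dim probe sets, cannot settle it. With the replicate number as a block, 2 genes were called for OP9-DL1 against OP9-GFP without dox rather than 1, and the other counts stayed within 1.5 times. The number of arrays, 3 per group, limits the precision.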
